A study of Mus musculus with 6 samples.

Results

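The vacuolar proton pump, or V-ATPase, was followed through 10 of its subunit genes in the mouse calvarial line MC3T3-E1, before and after osteoblast induction. The members were named as a list of genes (Atp6v0a1, Atp6v0a2, Atp6v0d1, Atp6v0d2, Atp6v1a, Atp6v1b2, Atp6v1c1, Atp6v1d, Atp6v1e1 and Atp6v1h), and a probe set counted for a member where the platform annotation named that gene and no other. All 10 were found, among 19938 genes tested, and they were read by 11 of 21789 probe sets that name 1 gene. Biotin-labelled total RNA of 6 samples was measured on expression arrays, 1 array each. The 3 undifferentiated samples were untreated cells of the line, kept in an α-MEM medium that lacks ascorbic acid, with 10% serum. The 3 differentiated samples were cells of the same line, taken at confluence and held for 14 days in DMEM with 10% serum, 0.1 µM dexamethasone, 0.2 mM ascorbic acid-2-phosphate, 10 mM β-glycerophosphate and 1 mM sodium pyruvate. The labels give the line's source for both groups as newborn C57BL/6 calvaria. Medium, confluence, time and the induction compounds differ together between the groups and cannot be told apart.

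The V-ATPase is a rotary motor that spends ATP to move protons into lysosomes, endosomes, the Golgi and secretory vesicles, and in some cells across the plasma membrane. Its V1 sector lies in the cytosol and hydrolyses ATP, and its V0 sector lies in the membrane and carries the protons. In bone the pump is best known from the osteoclast, which uses it to acidify the pit it resorbs, while every cell type needs it to keep lysosomal enzymes active. Several subunits exist as isoforms from separate genes, which differ in the tissues and membranes where they are found.

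Values are log2 expression in which each probe set was set to a median of 0 over the 6 arrays, so a value of 0.50 means 0.50 log2 units above that probe set's own median. The level of a gene, and whether it was expressed at all, cannot be read from them. Where the groups do not overlap, this centring also makes the highest value of the lower group and the lowest value of the higher group mirror each other. Array medians over all probe sets lay between -0.00499 and 0.00838, and no pair of arrays held identical values. The replicates are described as independent, but nothing states whether they were separate cultures, so p-values measure the spread between these samples, which may be technical. In RNA from whole cultures, a gene's rise within cells and a larger share of cells that express it cannot be told apart.

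All 10 members were higher in differentiated cells, and none was lower (limma, p adjusted by Benjamini-Hochberg across the 19938 genes, threshold 0.05). Over all genes, 16.4% were called higher and 19.1% lower. The members were chosen with earlier results of these data known, so this contrast is a description only. The largest difference was in Atp6v0a1, at 2.97-fold, and the smallest in Atp6v0a2, at 1.16-fold. In each of the 10 genes the 3 differentiated arrays lay wholly above the 3 undifferentiated ones, which holds for 23.2% of all genes. The median log2 fold change of the members was 0.74, beside 0.02 for all genes tested. One member, Atp6v0a1, was at least 2-fold higher, where 2.53% of all genes were called higher by at least that much.

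**Figure D1:**
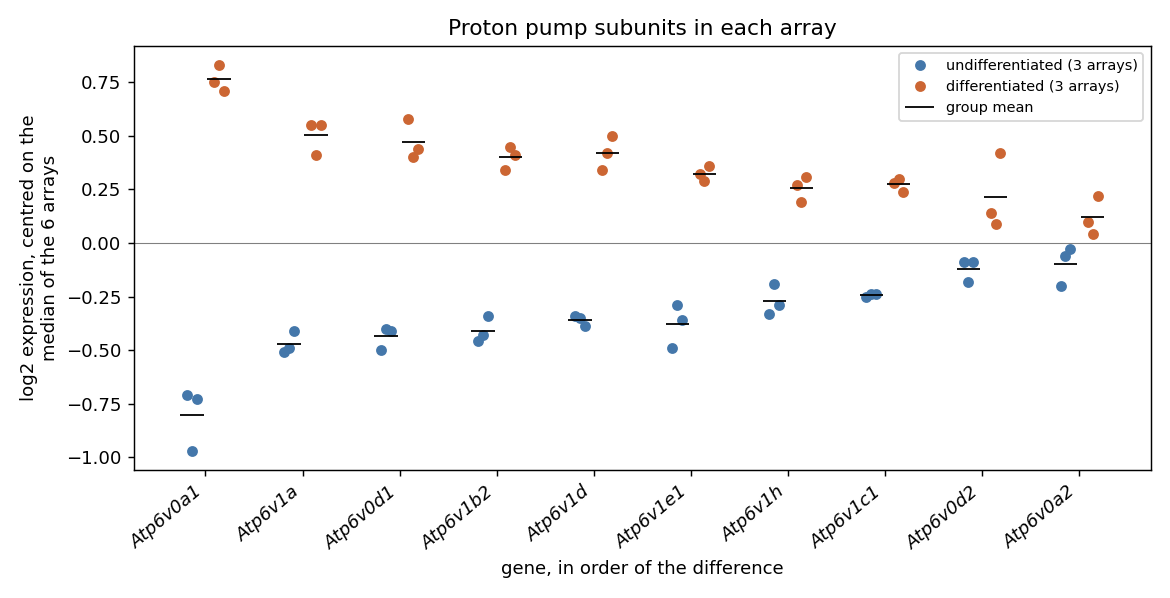
Log2 expression of the 10 subunit genes, centred on the median of the 6 arrays (vertical axis), for each gene in order of the difference between groups (horizontal axis); points are single arrays and bars are group means. The gap between groups is widest for Atp6v0a1, from -0.71 to 0.71, and narrowest for Atp6v0a2, from -0.03 to 0.04.

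The V1 members were all higher, by 0.51 to 0.97 on the log2 scale. Atp6v1a encodes subunit A, which carries the catalytic sites where ATP is split. In replicate order, the undifferentiated arrays read -0.51, -0.49 and -0.41 and the differentiated arrays 0.55, 0.41 and 0.55 (centred log2 expression, as for each gene here). The groups lay far apart against a spread of 0.05 (SD, n = 3) in undifferentiated and 0.08 (SD, n = 3) in differentiated arrays. The difference was 1.96-fold, a log2 fold change of 0.97 ± 0.06 (SE, limma adjusted p = 2.79e-06).

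Atp6v1b2 encodes the B isoform found in most tissues, which alternates with A in the ring that binds ATP. It stood at -0.46, -0.43 and -0.34 in undifferentiated arrays and at 0.34, 0.45 and 0.41 in differentiated arrays. No array of either group came near the other group, and the gene was 1.75-fold higher (0.81 ± 0.06, SE, limma adjusted p = 6.27e-06). Atp6v1d encodes subunit D of the central shaft that turns inside that ring. Its values were -0.34, -0.35 and -0.39, against 0.34, 0.42 and 0.50 after induction. The undifferentiated arrays were nearly level and the differentiated ones more spread, with a 1.72-fold difference (0.78 ± 0.06, SE, limma adjusted p = 7.86e-06).

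The remaining V1 members belong to the peripheral stalks and the collar, which hold the ring still while the shaft turns. Atp6v1e1, the widely expressed E subunit of the stalks, read -0.49, -0.29 and -0.36 and then 0.32, 0.29 and 0.36. Undifferentiated replicate 1 was the lowest array and the groups did not overlap. The gene was 1.63-fold higher (0.70 ± 0.06, SE, limma adjusted p = 2.67e-05). Atp6v1h encodes subunit H, which holds back ATP hydrolysis when V1 is detached from the membrane. It read -0.33, -0.19 and -0.29, against 0.27, 0.19 and 0.31, and was 1.44-fold higher (0.52 ± 0.06, SE, limma adjusted p = 1.50e-04). Atp6v1c1, the widely expressed C subunit, lets V1 and V0 come apart and rejoin. It was the tightest of the members in the undifferentiated arrays, at -0.25, -0.24 and -0.24, and stood at 0.28, 0.30 and 0.24 in the differentiated ones. Its difference of 1.43-fold (0.51 ± 0.05, SE, limma adjusted p = 4.45e-05) was thus close to that of Atp6v1h.

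The V0 members ran over a wider range than those of V1, from 0.21 to 1.57. Atp6v0a1 encodes an isoform of the large a subunit, which forms the path for protons through the membrane and helps place the pump in a given organelle. Its values were -0.71, -0.97 and -0.73 in undifferentiated arrays, of which replicate 2 was the lowest, and 0.75, 0.83 and 0.71 in differentiated arrays. The log2 fold change was 1.57 ± 0.08 (SE, limma adjusted p = 7.67e-07), and by this measure the gene stood at place 193 of the 19938 genes. Without undifferentiated replicate 2 it was 1.48.

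Atp6v0d1 encodes the widely expressed d subunit, which couples the shaft to the membrane ring. It read -0.50, -0.40 and -0.41, against 0.58, 0.40 and 0.44, with the groups well apart. It was 1.88-fold higher (0.91 ± 0.06, SE, limma adjusted p = 6.14e-06). Its paralogue Atp6v0d2, known as the d isoform of osteoclasts and kidney, read -0.09, -0.18 and -0.09, against 0.14, 0.09 and 0.42. The groups did not overlap, but differentiated replicate 3 stood well above the other differentiated arrays. The difference was 1.27-fold (0.34 ± 0.09, SE, limma adjusted p = 0.0136). Without differentiated replicate 3 the log2 fold change fell to 0.24 (adjusted p = 0.0255), and without undifferentiated replicate 2 the call was lost (0.31, adjusted p = 0.0523, over alternatives that gave 0.00387 to 0.0523).

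Atp6v0a2, the a isoform known from the Golgi and endosomes, was the member with the smallest difference and the only member read by a pair of probe sets. Their mean was -0.20, -0.06 and -0.03 in undifferentiated and 0.10, 0.04 and 0.22 in differentiated arrays. The groups touched nearly, and the difference was 1.16-fold (0.21 ± 0.07, SE, limma adjusted p = 0.0432). The probe sets disagreed. Probe set 10525804 had values of -0.22, -0.14 and -0.17 against 0.22, 0.14 and 0.16, without overlap, and a log2 fold change of 0.35 ± 0.05. Probe set 10525833 had values of -0.18, 0.03 and 0.12 against -0.03, -0.06 and 0.27, which overlap, and a log2 fold change of 0.07 ± 0.11 (adjusted p = 0.672 over probe sets). The call for the mean was lost without undifferentiated replicate 1 (0.16, adjusted p = 0.141), undifferentiated replicate 2 (0.23, 0.0694), differentiated replicate 1 (0.22, 0.0873) or differentiated replicate 3 (0.16, 0.154). The other alternatives gave 8.26e-04 to 0.0459.

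Neighbours in this order were often not separable. The difference between log2 fold changes was compared with the SD, within groups, of the difference between the 2 genes in each array. This is a description and not a test. The order comes from the same values, so a step beyond its SD does not show that the order is resolved. Atp6v0d1 and Atp6v1b2 differed by 0.10 (SD 0.11), Atp6v1b2 and Atp6v1d by 0.03 (SD 0.07), Atp6v1d and Atp6v1e1 by 0.08 (SD 0.09), and Atp6v1h and Atp6v1c1 by 0.01 (SD 0.08). None of these exceeded its SD. The steps from Atp6v1e1 to Atp6v1h (0.18, SD 0.04), from Atp6v1c1 to Atp6v0d2 (0.17, SD 0.15) and from Atp6v0d2 to Atp6v0a2 (0.13, SD 0.11) did. Atp6v1a and Atp6v0d1 differed by 0.06, close to their SD of 0.06. Atp6v0a1 stood 0.59 above Atp6v1a (SD 0.14), which was the widest step in the order.

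Paralogues that fill the same place in the pump changed by unequal amounts. Atp6v0d2 minus Atp6v0d1 was 0.41, 0.22 and 0.32 in undifferentiated and -0.43, -0.31 and -0.02 in differentiated arrays, a shift of -0.57 ± 0.14 (SE, n = 3 per group, two-sided exact permutation p = 0.100). Atp6v0a2 minus Atp6v0a1 was 0.51, 0.92 and 0.70 and then -0.66, -0.79 and -0.49, a shift of -1.36 ± 0.15 (SE, n = 3 per group, exact permutation p = 0.100). With 3 arrays against 3 this test cannot go below 0.100, so neither can pass the threshold of 0.05. Benjamini-Hochberg adjustment over the 2 comparisons leaves both at 0.100. In both pairs the groups did not overlap, and the larger rise was that of Atp6v0d1 and of Atp6v0a1.

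The pump's other subunits came from a list of 17 genes, of which 16 were measured here and Atp6v0c was not analysed here. Of these, 11 were higher, none was lower and 5 did not pass (all genes: 16.4% higher, 19.1% lower). Their median log2 fold change was 0.36. In V1, Atp6v1c2, the second C isoform, was higher by more than Atp6v1c1. It read -0.57, -0.65 and -0.94, against 0.57, 0.63 and 0.65, a 2.53-fold difference (1.34 ± 0.09, SE, limma adjusted p = 4.44e-06). The shaft subunit Atp6v1f (0.74 ± 0.05) and the stalk subunit Atp6v1g1 (0.90 ± 0.08) rose as well, each with a pair of probe sets that gave like values (0.73 and 0.76, and 0.88 and 0.92). Whether 1 of a pair reads a copy elsewhere in the genome was not examined. The isoforms Atp6v1g2 (0.33 ± 0.07, adjusted p = 0.00367) and Atp6v1e2 (0.22 ± 0.06, adjusted p = 0.0209), known from brain and testis, had small rises. The call for Atp6v1e2 was lost after cyclic loess scaling and without undifferentiated replicate 3 or differentiated replicate 3 (0.18 to 0.20, adjusted p up to 0.0805).

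In V0, Atp6v0b, a proton-binding subunit of the rotating ring, read -0.71, -0.70 and -0.57, against 0.60, 0.57 and 0.57. It was 2.36-fold higher (1.24 ± 0.06, SE, limma adjusted p = 4.23e-07). The small membrane subunits Rnasek (0.72 ± 0.06) and Atp6v0e (0.38 ± 0.05, adjusted p = 3.35e-04) rose too. Atp6v0a4, the a isoform of kidney, was called at 0.23 ± 0.08 (adjusted p = 0.0458), and the call was lost when any array but undifferentiated replicate 3 was left out (0.16 to 0.27, adjusted p from 0.0538 to 0.155). The accessory subunits Atp6ap2, also called the prorenin receptor (1.04 ± 0.08), and Atp6ap1 (0.67 ± 0.05), which help assemble and stabilise the pump, both rose.

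The 5 subunits that did not pass were Tcirg1, Atp6v1b1, Atp6v1g3, Atp6v0e2 and Atp6ap1l. Tcirg1 encodes a3, the a isoform of the osteoclast's resorbing membrane, whose loss causes osteopetrosis. It read 0.05, 0.03 and 0.03 in undifferentiated and -0.10, -0.14 and -0.03 in differentiated arrays. Here the differentiated arrays were the lower ones, without overlap, and the log2 fold change was -0.13 ± 0.05 (95% interval -0.25 to -0.01, adjusted p = 0.0945). After cyclic loess scaling it was called lower (-0.17, adjusted p = 0.0349, over alternatives that gave 0.0349 to 0.247). The kidney isoforms Atp6v1b1 (0.06 ± 0.06, 95% interval -0.07 to 0.19) and Atp6v1g3 (0.01 ± 0.05, -0.11 to 0.13) stood near 0. Atp6v0e2 was at 0.17 ± 0.11 (-0.07 to 0.42) and Atp6ap1l at -0.03 ± 0.05 (-0.15 to 0.09). Whether any of them was expressed cannot be read from centred values.

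**Figure D2:**
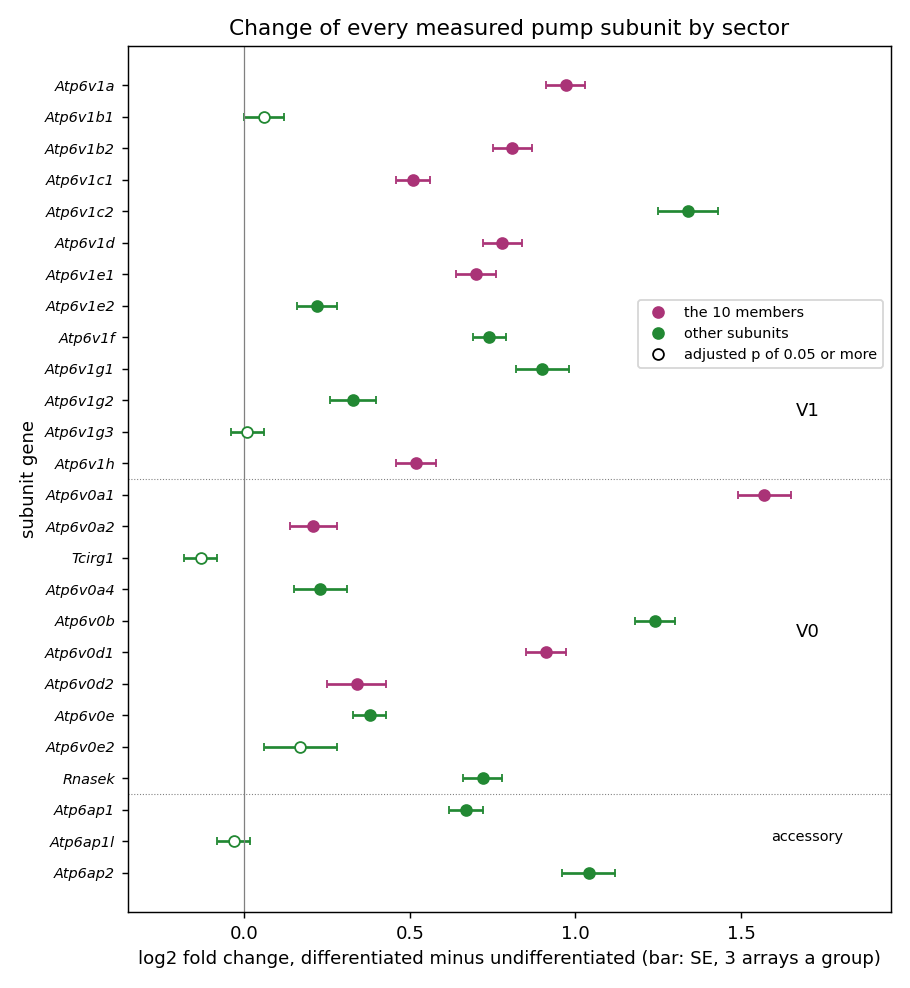
Log2 fold change of differentiated minus undifferentiated cells (horizontal axis, bars are limma's SE with 3 arrays per group) for each of the 26 measured subunit genes, by sector. Open points have an adjusted p of 0.05 or more; in the a family Atp6v0a1 stands at 1.57, while Atp6v0a2, Tcirg1 and Atp6v0a4 lie between -0.13 and 0.23.

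Promoters of the pump genes were searched for a motif known from lysosomal genes, and a link to the changes here was not tested. Many lysosomal genes carry the E-box CACGTG, often in the longer form TCACGTGA, which the MiT/TFE transcription factors bind. Both motifs read the same on either strand, and the longer contains the shorter. RefSeq windows of build GRCm38.p6, from 250 bases before to 50 after a transcription start, were found for 5 of the 10 members (Atp6v0a1, Atp6v0d1, Atp6v1a, Atp6v1d and Atp6v1e1) and for 13 of the other subunits measured. CACGTG was present in 2 of the 5 members, Atp6v1a and Atp6v0d1, and both held the longer form. Among the other subunits it was present in Atp6v0b and Atp6v0e, and the longer form in Atp6v0e. Of 15614 tested genes with a window, 9.5% held CACGTG and 1.52% held TCACGTGA. Counted over all 32851 windows, the shares were 7.15% and 0.974%. A match is a description of these letters, and their use in these cells was not measured. The log2 fold changes of these 4 subunits ran from 0.38 in Atp6v0e to 1.24 in Atp6v0b. The stretches around the motif are shown for all 4, since no other measured subunit with a window held CACGTG. Each is written 5′ to 3′ along the gene's strand, with CACGTG in capitals.
Atp6v1a, chr16:44139355-44139420, minus strand: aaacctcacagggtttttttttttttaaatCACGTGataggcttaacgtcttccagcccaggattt
Atp6v0d1, chr8:105566045-105566097, minus strand: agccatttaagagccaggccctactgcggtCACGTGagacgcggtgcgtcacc
Atp6v0b, chr4:117887312-117887395, minus strand: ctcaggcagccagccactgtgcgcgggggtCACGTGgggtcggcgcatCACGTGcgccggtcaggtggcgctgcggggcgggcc
Atp6v0e, chr17:26676369-26676415, plus strand: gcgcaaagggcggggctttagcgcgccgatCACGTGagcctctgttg
The motif began 131 bases before the start in Atp6v1a and 3 bases before it in Atp6v0d1. In Atp6v0b it occurred at 36 and again at 18 bases before the start, and in Atp6v0e it began at base 4 of the transcript. Atp6v0a1, Atp6v1d and Atp6v1e1 had no CACGTG in their windows, and the remaining members had no window to search.

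Genes that assemble the pump or regulate it were mixed. Of 13 measured, 5 were higher, 1 was lower and 7 did not pass (all genes: 16.4% higher, 19.1% lower). Their median was 0.14. Ncoa7, whose TLDc domain binds the V-ATPase, rose by the most (1.52 ± 0.07, adjusted p = 5.08e-07), followed by the TLDc gene Tbc1d24 (0.90 ± 0.07). Tmem199, which helps assemble V0, was lower (-0.29 ± 0.07, adjusted p = 0.0142), but not without undifferentiated replicate 1 or 2 or differentiated replicate 2 (adjusted p up to 0.0542).

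Channels and exchangers of acidic organelles set how far the pump can acidify them. Of 14 measured, 7 were higher, 1 was lower and 6 did not pass (all genes: 16.4% higher, 19.1% lower). Their median was 0.25. The sodium-proton exchanger Slc9a9 (1.66 ± 0.07) and the lysosomal calcium channel Mcoln1 (1.24 ± 0.08) led the rises. The chloride-proton exchanger Clcn7 (1.10 ± 0.06) and its partner Ostm1 (1.20 ± 0.06), named after their values were seen because they serve the pump in osteoclast and lysosome alike, also rose. Clcn3, a relative of Clcn7, was 1.52-fold lower (-0.61 ± 0.08, SE, limma adjusted p = 2.51e-04).

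The pump also serves as a platform for nutrient sensing by the kinase mTORC1 at the lysosome. In that list 8 of 17 genes were higher, 1 was lower and 8 did not pass (all genes: 16.4% higher, 19.1% lower). The list's median was 0.19. The higher genes numbered 5 without undifferentiated replicate 1 or differentiated replicate 1. The folliculin partners Fnip2 (2.11 ± 0.10) and Fnip1 (1.20 ± 0.06) rose the most, and Mlst8, a subunit of mTORC1, was lower (-0.43 ± 0.07, adjusted p = 0.00126). Of the 4 MiT/TFE factors, which drive lysosomal genes, Mitf rose (0.85 ± 0.07, adjusted p = 2.44e-05). It was averaged over 2 disagreeing probe sets, one at 1.60 ± 0.09 and the other at 0.10 ± 0.06 (adjusted p = 0.291 over probe sets), and the value with the lowest-numbered probe set alone was 1.60. Tfeb (-0.02 ± 0.13, adjusted p = 0.925), Tfec (-0.05 ± 0.05, adjusted p = 0.507) and Tfe3 (-0.15 ± 0.05, adjusted p = 0.0602) did not pass, although Tfe3 was called lower with array weights and without undifferentiated replicate 3. Their activity, which depends on entry into the nucleus, is not seen in RNA levels.

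Lysosomal hydrolases and membrane proteins, the cargo and shell of the organelle that the pump acidifies, had a larger median than the pump. Of 26 measured, 24 were higher, none was lower and 2 did not pass (all genes: 16.4% higher, 19.1% lower). Their median was 1.05. They ran up to 3.21 ± 0.06 in Ctsk, a collagen-cleaving cathepsin, and 2.32 ± 0.07 in Hexa, a subunit of β-hexosaminidase. Acp5, the tartrate-resistant acid phosphatase, was among those that did not pass (0.08 ± 0.07, adjusted p = 0.433). The genes of this list called higher numbered 23 to 25 over the alternatives. Galns was called close to the threshold (0.22 ± 0.08, limma adjusted p = 0.0497), and 8 of 14 alternatives lost that call.

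**Figure D3:**
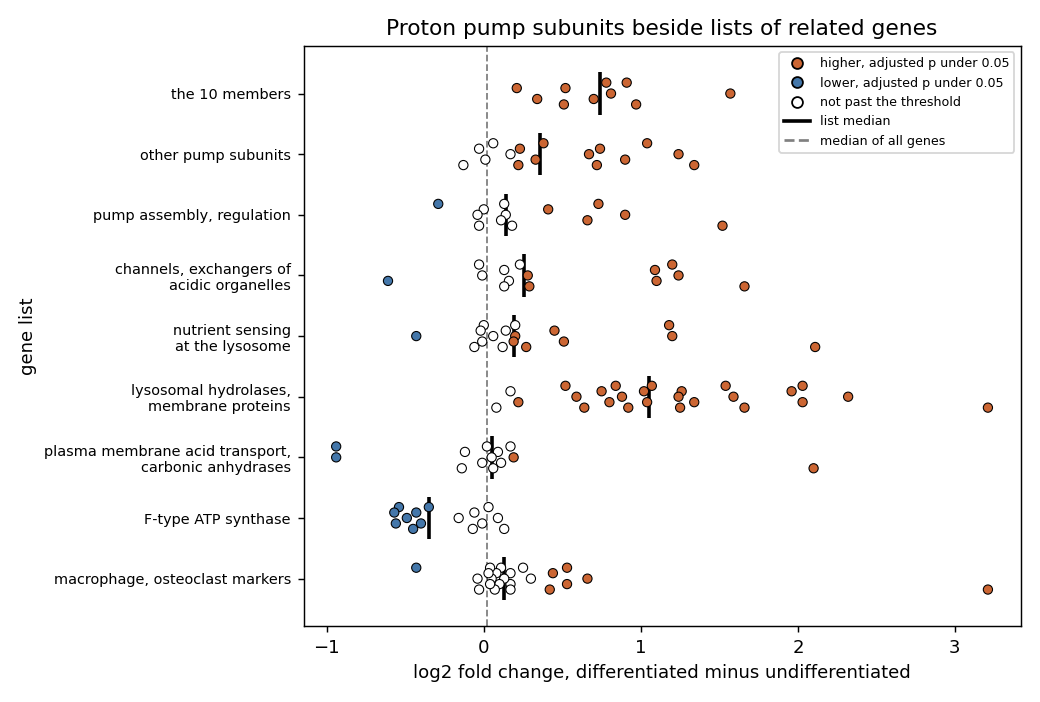
Log2 fold change of differentiated minus undifferentiated cells (horizontal axis) for each gene of 9 lists (vertical axis); points are genes, black bars list medians and the dashed line the median of all genes. The 10 members have a median of 0.74, between lysosomal hydrolases and membrane proteins at 1.05 and the other pump subunits at 0.36, and the F-type ATP synthase lies at -0.35.

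Genes of acid transport at the cell surface and carbonic anhydrases were mixed. Of 13 measured, 2 were higher, 2 were lower and 9 did not pass (median 0.05). These counts are near the shares over all genes, 16.4% higher and 19.1% lower. The proton channel Hvcn1 rose 4.30-fold (2.10 ± 0.06). The hypoxia-induced carbonic anhydrase Car9 was called at 0.19 ± 0.06 (adjusted p = 0.0398, over alternatives that gave 0.0251 to 0.135), a call that 8 of 14 alternatives lost. Car13, a cytosolic carbonic anhydrase, and Slc16a1, which carries lactate with a proton, were lower, at -0.94 ± 0.07 and -0.94 ± 0.16. After cyclic loess scaling the value of Slc16a1 was -1.61. The mitochondrial F-type ATP synthase is the pump's structural relative, run in the direction of ATP synthesis. None of its 15 measured genes was higher, 8 were lower and 7 did not pass (median -0.35). Over all genes the shares were 16.4% higher and 19.1% lower. Each of the 8 lower genes of the ATP synthase kept its call in every alternative that included it. With only genes of 1 probe set the count was 6, because the rest have several probe sets and were left out. The largest falls were in Atp5d (-0.57 ± 0.06), a subunit of the shaft, and in Atpif1 (-0.56 ± 0.07), which encodes an inhibitor of the enzyme. Several of its subunits have processed copies in the genome, so their probe sets may read more than 1 locus.

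Since the pump is abundant in osteoclasts and macrophages, markers of these cells were read beside it. Of 23 markers, 6 were higher, 1 was lower and 16 did not pass, with a median of 0.13. Over all genes the shares were 16.4% higher and 19.1% lower. In 11 of the 23 the differentiated arrays lay wholly above the undifferentiated ones, which holds for 23.2% of all genes. The markers called higher numbered 6 to 9 over the alternatives. The higher markers were Ctsk, which is also counted among the lysosomal genes, the tetraspanin Cd53 (0.66 ± 0.08), the Fc receptor chain Fcer1g (0.53 ± 0.07, adjusted p = 3.98e-04), the integrin chain Itgb3 (0.53 ± 0.10, adjusted p = 0.00369), Cd68 (0.44 ± 0.10, adjusted p = 0.00627) and Cd14 (0.42 ± 0.05, adjusted p = 3.09e-04). Nfatc1, the transcription factor of osteoclast formation, was lower (-0.43 ± 0.07, adjusted p = 0.00121). Among the 16 that did not pass were Acp5 (above), the calcitonin receptor Calcr (0.11 ± 0.05, adjusted p = 0.143), Csf1r (0.07 ± 0.09, 0.616), Ptprc (0.10 ± 0.06, 0.243) and Dcstamp (0.04 ± 0.05, 0.668). Closer to the threshold, and positive, were Siglec15 (0.30 ± 0.11, limma adjusted p = 0.0601), Tyrobp (0.25 ± 0.09, 0.0706), Trem2 (0.17 ± 0.06, 0.0577) and Mmp9 (0.17 ± 0.06, 0.0625). Of the 16, only Adgre1 (-0.03 ± 0.06) and Spi1 (-0.04 ± 0.06) were negative. The mean of the 23 markers lay between -0.18 and -0.11 in undifferentiated and between 0.14 and 0.17 in differentiated arrays. The mean of the 22 markers other than Ctsk lay between -0.11 and -0.04 in undifferentiated and between 0.08 and 0.10 in differentiated arrays. Their level cannot be read, and their part in the rise of the pump genes was not tested. For the labelled cell type, 13 osteoblast and osteocyte markers were listed, of which Runx2, Bglap and Spp1 were not analysed here. Of the 10 measured, 5 were higher, 2 were lower and 3 did not pass (all genes: 16.4% higher, 19.1% lower). The rises were led by Dmp1 (3.44 ± 0.20) and Ibsp (3.12 ± 0.09). Mepe (0.00 ± 0.05, limma adjusted p = 0.959), Phex (-0.05 ± 0.05, 0.539) and Col1a2 (-0.13 ± 0.06, 0.141) did not pass. Col1a1 (-0.40 ± 0.07) and Sp7 (-0.40 ± 0.07) were lower, the latter not after cyclic loess scaling (-0.19, adjusted p = 0.150).

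The rise of the 8 members other than Atp6v0a2 and Atp6v0d2 held its call under each of the 14 alternatives. Their values moved least in Atp6v1c1, from 0.50 to 0.53, and most in Atp6v0a1, from 1.48 to 1.62. The largest adjusted p over these 8 genes and all alternatives was 0.00118, in Atp6v1h.

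**Figure D4:**
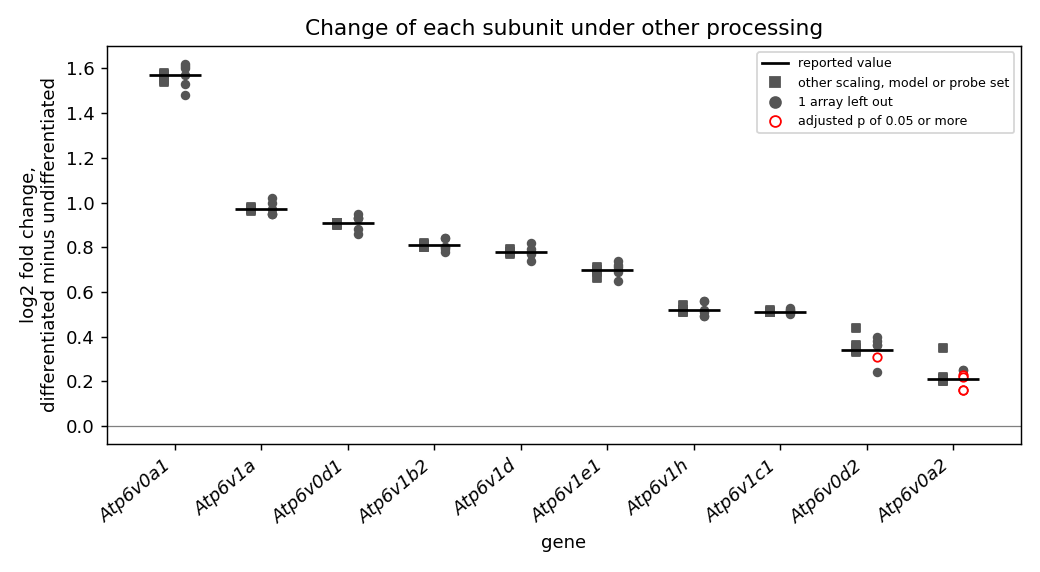
Log2 fold change of differentiated minus undifferentiated cells (vertical axis) of the 10 subunit genes (horizontal axis) as reported (bars), with other scaling, models or probe sets (squares) and with 1 array left out (circles). Open red symbols, with an adjusted p of 0.05 or more, occur in Atp6v0d2, in 1 case, and in Atp6v0a2, in 4 cases.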

How the data were processed

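The deposited table holds log2 expression from 6 arrays, made with RMA according to the submitters' processing notes (no version stated). RMA corrects background, normalizes by quantiles, summarises each probe set and returns log2 values. A further centring shows in the table: the median over arrays lies within 5e-07 of 0 for all 28856 probe sets. No level remains, so no filter on dim genes could be applied. The number of arrays limits precision.

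The platform annotation gives 1 gene for 21789 probe sets, which were used, more than 1 gene for 1621 and no gene for 5446. Symbols were updated by gene ID through a RefSeq table of GRCm38.p6 (21698 matched). Probe sets of a gene were averaged (999 genes). Probe set coordinates were not used.

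Groups and replicate numbers come from sample titles. Differentiated minus undifferentiated was fitted over 19938 genes with limma 3.58.1 in R 4.3.3 (lmFit, eBayes, no replicate block), two-sided, with Benjamini-Hochberg adjustment and a threshold of 0.05. Errors are moderated SEs, and 95% intervals are unadjusted. The fit was tested on simulated data. Paralogues were compared by exact permutation of within-array differences.

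Members and gene lists were chosen with earlier results of these data known. Named were all members, all other measured subunits, all MiT/TFE factors and, of each other list, up to 2 largest rises and 2 largest falls past the threshold. Clcn7, Ostm1, Galns, Mepe, Phex, Col1a2 and macrophage and osteoclast markers other than Ctsk, Cd53 and Nfatc1 were named after their values were seen. Alternatives were a replicate block, quantile, median and cyclic loess scaling, the lowest-numbered probe set, genes with 1 probe set, array weights, robust eBayes and each array left out. E-boxes were searched as exact matches in RefSeq promoter windows.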

Additional observations from a re-analysis of the deposited data

How the results depend on the processing

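With the replicate number as a block (replicate block), 10 members were higher and 7162 of 19938 genes were called, against 7070 without it, and no member's call changed. Correlations across genes of same-numbered arrays' deviations from group means were -0.0013, 0.0692 and 0.162 for replicates 1, 2 and 3, and those of the 6 other pairs ran from -0.1829 to 0.1346. Only replicate 3 exceeded 0.1, so the numbers were not taken to pair the samples. The members called higher numbered 10 with each other scaling, model or probe set rule (9 of 9 with only genes of 1 probe set) and 8 to 10 with 1 array left out, and none was lower in any alternative run. The groups of every member also stayed apart after quantile, median and cyclic loess scaling and with the lowest-numbered probe set. The other alternatives keep these values or drop an array, so they could not create an overlap. As reported, 23.2% of all genes had differentiated arrays wholly above the others. Calls over all genes numbered 6003 to 7523 with 1 array left out. The other subunits called higher numbered 9 to 11. The paralogue shifts kept their sign in every alternative run (exact permutation p of 0.100 to 0.200), from -0.69 to -0.48 for Atp6v0d2 minus Atp6v0d1 and from -1.46 to -1.21 for Atp6v0a2 minus Atp6v0a1. The median of all genes was 0.01 after each rescaling, against 0.02 as reported. The planned filter on low values needs a level and was not run. Signal over background is unknown, so whether Atp6v0d2 or Tcirg1 was detected cannot be told.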

Other observations

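Genes of the osteoclast's proton pump and other genes known from osteoclasts were read side by side. The differences between them were not tested. Ctsk was 9.26-fold higher, at -1.62, -1.71 and -1.56 in undifferentiated and 1.58, 1.61 and 1.56 in differentiated arrays. The chloride-proton exchanger Clcn7 was 2.14-fold, its partner Ostm1 2.30-fold, the integrin chain Itgb3 1.44-fold and Atp6v0d2 1.27-fold higher. Tcirg1 was at -0.13 ± 0.05 and Acp5 at 0.08 ± 0.07 (SE, 3 arrays per group), and neither passed the threshold. Nfatc1, which activates such genes in osteoclasts, was 1.34-fold lower. Carbonic anhydrase Car2, which supplies protons to the osteoclast's pump, was at 0.06 ± 0.06 (adjusted p = 0.546, limma), and the chloride-bicarbonate exchanger Slc4a2 at -0.14 ± 0.05 (adjusted p = 0.0722, limma). These genes were picked after their values were seen.

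Promoter windows of the other lists were searched for the E-box too. Of all tested genes with a window, 9.5% held CACGTG and 1.52% held TCACGTGA. The lists were not tested against these shares. CACGTG was present in 9 of 22 genes with a window among lysosomal hydrolases and membrane proteins, 5 of 13 channels and exchangers of acidic organelles, 6 of 16 nutrient sensing genes, 3 of 10 genes of pump assembly and regulation, 4 of 14 of the F-type ATP synthase and 2 of 8 osteoblast and osteocyte markers. It was present in 1 of 8 genes of plasma membrane acid transport and carbonic anhydrases, 0 of 12 macrophage and osteoclast markers and 0 of 4 MiT/TFE factors. The longer TCACGTGA was present in 3 of 22 lysosomal hydrolase and membrane protein genes, 3 of 13 channels and exchangers, 1 of 10 assembly and regulation genes and 1 of 8 osteoblast and osteocyte markers. None of the 16 nutrient sensing, 14 F-type, 8 acid transport, 12 macrophage and osteoclast or 4 MiT/TFE genes with a window held it.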
